A study of Mus musculus with 2 samples.

Results

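The 3 genes described here, Il2ra, Il2rb and Il2rg, encode the chains of the IL-2 receptor. The rule that chose them used gene names and positions, but earlier results of these data were known when they were chosen. They are 3 of the 21631 protein-coding genes on chromosomes 1 to 19 and X of the mm10 RefSeq annotation. All called regions that had at least 1 bp within a gene body or the 50 kb on either side of it were taken, which gave 71 of 54527 wild-type regions and 53 of 39745 knockout regions. The measurement was H3K36me2, histone H3 dimethylated at lysine 36, in regulatory T (Treg) cells of the spleen of C57BL/6 mice. The study compared wild type (WT) with an Nsd2 Treg conditional knock out (KO), and each genotype had 1 library. For the deleter line, the age of the animals, the number of animals pooled and any treatment, the sources used here give no entry. No difference between the genotypes therefore has a replicate check, no test was possible, and all intervals cover counting error only.

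IL-2 is the cytokine on which Treg cells depend for survival. Il2ra encodes the alpha chain (CD25), which raises the affinity for IL-2 and is carried at high density by Treg cells. Il2rb encodes the beta chain (CD122), shared with the IL-15 receptor, and Il2rg the common gamma chain (CD132), shared with the receptors for IL-4, IL-7, IL-9, IL-15 and IL-21. The beta and gamma chains bind the kinases JAK1 and JAK3, which phosphorylate STAT5, and STAT5 in turn binds enhancers of Il2ra. NSD2 is a methyltransferase that places H3K36me2, a mark found over the bodies of active genes and between genes.

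Il2ra lies on chromosome 2, from 11642792 to 11693194, and is 50403 bp long. Il2rb lies on chromosome 15, from 78479256 to 78511621, and is 32366 bp long. Il2rg lies on chromosome X, from 101264385 to 101268255, and is 3871 bp long. The annotation gives 1 start and 1 end for a gene, without exons, so regions were placed in gene bodies and not in exons, introns or UTRs. For Il2rb these ends enclose 1 curated and 5 predicted transcripts. RefSeq promoters of GRCm38.p6, the assembly behind mm10, were found for 2 of the 3 genes.

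The sequences of these promoters are shown because called regions overlapped them differently. In the 300 bases from 250 before to 50 after its start, Il2ra had a region in both libraries, whereas Il2rg had one in the knockout only. The 250 bases before the start read as follows, 5′ to 3′ on the gene's strand, with capitals for matches to the motifs searched.
Il2ra, chr2:11642542-11642791, plus strand: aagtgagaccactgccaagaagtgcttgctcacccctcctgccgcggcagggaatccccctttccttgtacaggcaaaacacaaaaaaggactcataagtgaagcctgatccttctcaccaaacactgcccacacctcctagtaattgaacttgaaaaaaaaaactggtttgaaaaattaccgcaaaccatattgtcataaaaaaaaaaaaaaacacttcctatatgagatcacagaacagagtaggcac
Il2rg, chrX:101268256-101268505, minus strand: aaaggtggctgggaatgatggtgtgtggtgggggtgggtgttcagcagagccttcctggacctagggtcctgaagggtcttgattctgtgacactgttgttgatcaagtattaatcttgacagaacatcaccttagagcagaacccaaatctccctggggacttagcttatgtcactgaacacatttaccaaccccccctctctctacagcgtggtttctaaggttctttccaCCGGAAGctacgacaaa

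The motifs searched on both strands were TTCNNNGAA for STAT factors, TGTGGTT for RUNX factors, CCGGAAG for ETS factors, TGACTCA for AP-1 and TATAAA for the TATA box. They had matches in 8.34%, 5.29%, 8.92%, 5.22% and 13.7% of the 32619 promoter windows on these chromosomes. Il2rg had 1 match to the ETS motif, from base 234 to base 240 of its window, counted from 1 at its 5′ end, and Il2ra had no match to any of them. Each window held 3 CG dinucleotides, against a median of 7 over all promoters. Of all promoter windows, 9.07% were overlapped by a wild-type region, 8.88% by a knockout region, 4.4% by both and 4.47% by a knockout region only.

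The wild-type library had 17158154 tags and the knockout library 14789700 tags. The caller's approximate immunoprecipitation efficiency was 7.17% for wild type and 5.89% for the knockout. What this difference contributes to the values below was not tested. A tag is a sequenced read, and the normalised tag counts used below are the authors' values, scaled to 10000000 tags per library. Equal levels below mean equal normalised tags after this scaling, which removes any genome-wide difference in the mark. A peak of 500 bp needed 13 tags in wild type and 12 tags in the knockout, which are 7.58 and 8.11 normalised tags. The deposited counts of regions of 500 bp could lie slightly under these limits, with a lowest value of 6.7 for wild type and of 7.1 for the knockout in the 3 windows. Tags are known only inside called regions, so a place without a region need not have had none. Regions were called in each library on its own, so a sum of tags grows with the length called, and the intervals of tag ratios do not cover that. Regions covered 42.5 Mb of the genome in wild type and 31.6 Mb in the knockout. Of 5 Treg markers besides Il2ra, 4 had a region over the gene body in each library, with none over Ctla4. Regions were found over 7 of 8 pan-T cell markers in each library, over 3 of 6 B cell markers in each, over 2 of 5 myeloid markers in each, over 3 and 0 of 5 NK and CD8 T cell markers and over 1 and 0 of 3 erythroid markers. Pooled cover was 16.8% and 18.2% for these Treg markers, 25.2% and 29.8% for the pan-T list, 2.47% and 1.88% for B cell markers, 3.38% and 2.55% for myeloid markers, 4.87% and 0% for NK and CD8 markers and 3.55% and 0% for erythroid markers in wild type and knockout. Their part in the values below was not tested. The body of Nsd2 had 0 bp of wild-type and 500 bp of knockout regions, and a histone mark does not check the deletion.

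The 3 genes had very different amounts of the mark around them, and the order was the same in both libraries. Over the gene body with its flanks, Il2rb had 1025.6 normalised tags in 41 wild-type regions and 1156.6 in 30 knockout regions. Il2ra had 363.0 in 24 and 355.2 in 18 regions, and Il2rg had 55.1 in 6 and 67.0 in 5 regions. Per kb of window length this came to 7.75 normalised tags in wild type (exact Poisson 95% interval 7.39 to 8.12) and 8.74 in the knockout (8.33 to 9.16) for Il2rb. Il2ra had 2.41 (2.23 to 2.61) and 2.36 (2.16 to 2.57) per kb. Il2rg had 0.53 (0.43 to 0.65) and 0.64 (0.52 to 0.78) per kb. The intervals of neighbours in this order did not overlap in either library.

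**Figure D1:**
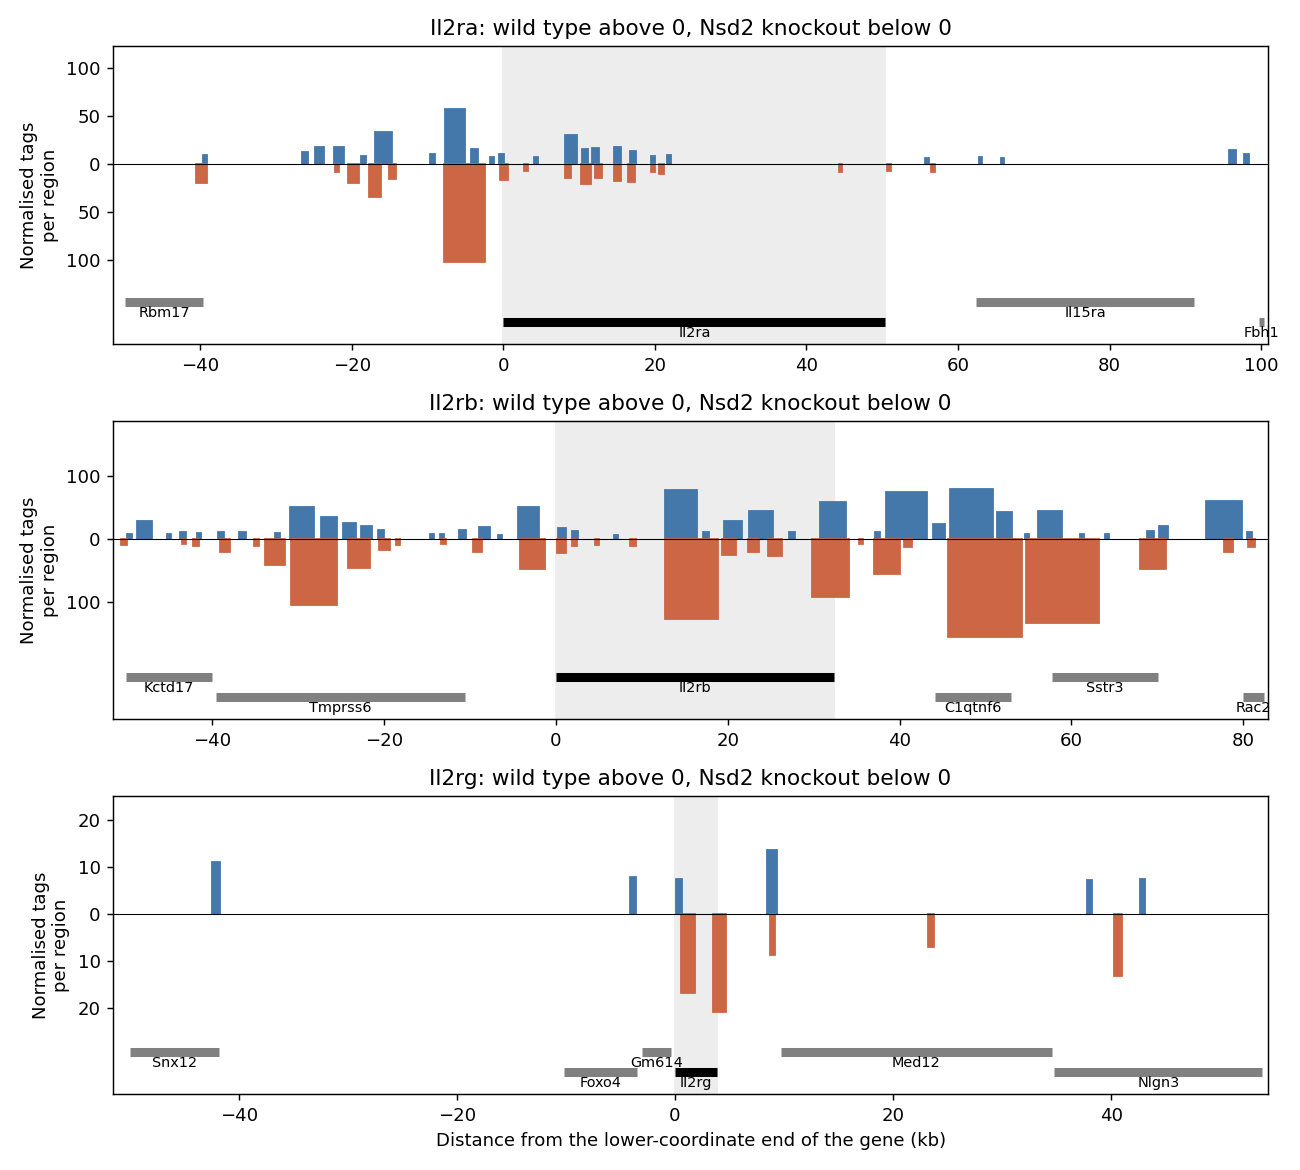
Called H3K36me2 regions around the 3 genes. The horizontal axis is the distance in kb from the lower-coordinate end of the gene, each bar spans 1 region and its height is its normalised tag count, wild type upward and knockout downward, on a scale of its own for each gene. Grey shading and the black line mark the gene body, and grey lines mark neighbouring coding genes up to the window edges; regions are spread over the whole Il2rb window, lie mostly on the left of the Il2ra window and are few around Il2rg.

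Among coding genes with enough tags in their windows to be ranked, Il2rb stood near the top and Il2rg near or below the middle. Among 11151 coding genes whose windows held at least 50 normalised tags over both libraries, Il2rb ranked 31st in wild type and 28th in the knockout. Il2ra ranked 574th and 561st, and Il2rg ranked 7719th and 5732nd. The rest of the 21631 coding genes had under 50 normalised tags over both libraries, so all of them lay below Il2rg. The ranked sums were not adjusted for gene length. Il2rg is on the X chromosome, where regions were sparse in both libraries. There were 3.46 wild-type and 2.68 knockout regions per Mb of X, against 14.3 and 9.58 on the autosome with the fewest. The part of this in the value of Il2rg, the lowest of the 3 chains, was not tested.

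Of the gene bodies alone, Il2rb was the most covered in both libraries and Il2rg had the largest difference between them. The covered share is the part of the gene body, in percent of its length, that lay inside regions, and for Il2ra it was 13.5% in wild type and 15.5% in the knockout. For Il2rb it was 42.8% and 49.7%, and for Il2rg 12.9% and 40.6%. Over the 11217 genes measured, coding genes no shorter than 2000 bp that either library marked, the medians were 3.21% in wild type and 2.20% in the knockout, so all 3 genes stood above the median gene in both. The difference, knockout minus wild type, was 1.996 percentage points for Il2ra, 6.90 for Il2rb and 27.7 for Il2rg. In that order, its intervals from counting pieces of 500 bp were -8.57 to 12.5, -11.9 to 23.8 and -24.5 to 64.9 points. Each of these intervals included equal shares, also that of Il2rg. The median difference over all measured genes was -0.69. A larger share in the knockout was found in 4119 of the measured genes and a smaller one in 6701.

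By the rule of size used for all genes, a difference of at least 20 percentage points, 1 of the 3 genes was higher in the knockout and 0 were lower. Of all measured genes 1.93% were higher and 1.71% were lower by that rule. The gene past the rule was Il2rg, whose body is so short that each called stretch of 500 bp makes up 12.9% of it. Its difference was 7.76 points when 5 kb on either side of the body were included, so the call of Il2rg ended under that setting. It was 0 when each list was kept to regions with a score at or above its own median. That setting left no region over the body in either library, so there was nothing to compare. When knockout shares were scaled up for the smaller covered length of that library over the genome, Il2rb passed the rule too, at 24.0 points.

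**Figure D2:**
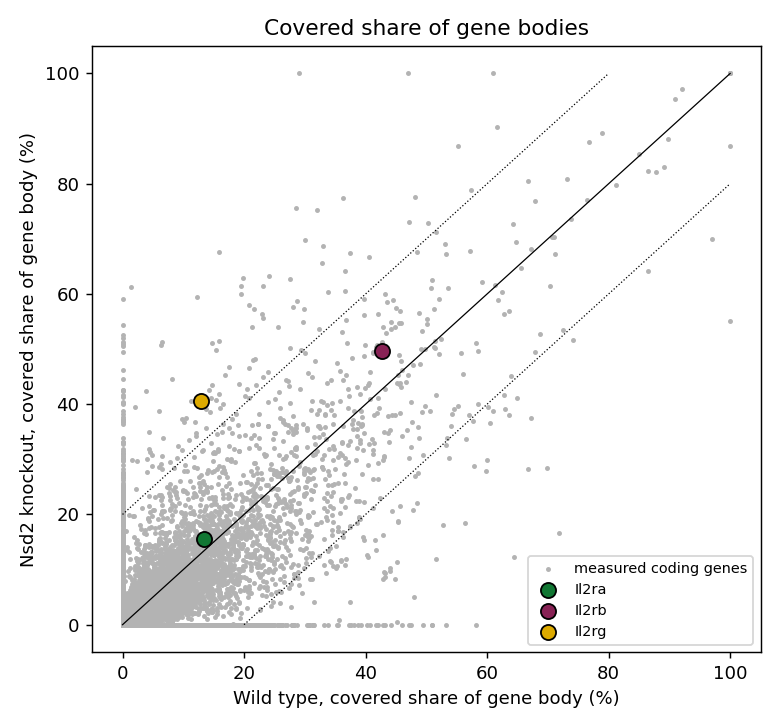
Covered share of gene bodies, in percent, in wild type (horizontal axis) and the Nsd2 knockout (vertical axis). Grey points are the 11217 measured coding genes, large points the IL-2 receptor chains, the solid line marks equal shares and the dotted lines a difference of 20 percentage points; Il2rg is the one of the 3 chains beyond a dotted line, at 12.9% and 40.6%.

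Around Il2ra the called regions lay mostly upstream of the gene and over its first part in both libraries, with few over the rest. The upstream 50 kb held 199.6 normalised tags in 11 wild-type regions and 218.3 in 7 knockout regions, which covered 24.3% and 23.7% of it. The body held 127.9 in 9 and 137.9 in 10 regions. The knockout-to-wild-type ratio of tags was 1.09 upstream (exact 95% interval 0.94 to 1.28) and 1.08 in the body (0.89 to 1.31), and both intervals included equal levels. With the body divided into 5 equal parts, the first 2 parts held 92.6% of its wild-type cover and 85.2% of its knockout cover. Part 4 held none in either library, and part 5 held 1 knockout region of 500 bp with 8.11 normalised tags, close to the caller's limit.

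The richest stretch of the Il2ra window ended 2.37 kb before the gene start and ran over 5463 bp (chr2:11634961-11640424). A stretch here is a run of regions of either library that overlap one another. The knockout had 1 region there with 102.4 normalised tags, and wild type had 2 regions with 73.4 in all, a ratio of 1.40 (1.09 to 1.78). A second upstream stretch, between 17.8 and 14.1 kb before the start, had 33.2 normalised tags in wild type and 50.4 in the knockout, a ratio of 1.52 (1.07 to 2.19). In the first stretch the called length was 3716 bp in wild type against 5463 bp in the knockout. Density was 19.8 and 18.7 normalised tags per kb called, so inside regions the ratio went with length. Regions are called only above a tag minimum, so this cannot show whether density over the whole stretch differed. In the second the called lengths were 2350 and 2613 bp, and the density was 14.1 and 19.3 per kb. In the other direction, the stretch 22.4 kb before the start had 17.5 and 8.45 normalised tags, a ratio of 0.48 (0.22 to 0.93), over called lengths of 1254 and 500 bp. The largest region of the window found in 1 library only was a knockout region of 20.3 normalised tags whose upstream edge lay 20.5 kb before the start.

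At the start of Il2ra, where the promoter printed above lies, wild type had a region of 635 bp with 10.2 normalised tags and the knockout one of 1010 bp with 16.9. These are 18 and 25 tags as sequenced, and their ratio of 1.66 (0.84 to 3.13) lay within counting error. Inside the gene, 6 further stretches were called in both libraries, all between 8.08 and 19.98 kb after the start. The stretch at 8.08 kb had 29.7 normalised tags in wild type and 14.9 in the knockout, a ratio of 0.50 (0.29 to 0.84), over called lengths of 1683 and 902 bp. The other 5 had ratios from 0.87 to 1.38, each with an interval that included equal levels. The body also had 2 regions called in wild type alone and 3 called in the knockout alone, the largest with 10.1 normalised tags.

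The flank beyond the 3′ end of Il2ra, which holds Il15ra, had less cover in the knockout. Wild type had 45.8 normalised tags in 5 regions and the knockout 15.9 in 2 regions, a ratio of 0.35 (0.21 to 0.56). Il15ra encodes the alpha chain of the IL-15 receptor, a close relative of Il2ra, and regions covered 1000 bp of its body in wild type but 0 bp in the knockout. Of the 5 wild-type regions, 3 were 500 bp long and had under 8.11 normalised tags, as did 1 of the 2 knockout regions. Without these, 24.8 and 8.11 normalised tags were left, a ratio of 0.33 (0.16 to 0.62). The 2 wild-type regions that were left lay between Il15ra and Fbh1, a DNA helicase gene, with 14.3 and 10.5 normalised tags, and no knockout region overlapped them.

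Il2rb sat in a widely marked neighbourhood, with 45.2% of the window covered in the wild-type library and 48.2% in the knockout library, and its body had more tags in the knockout. The body held 271.5 normalised tags in 9 wild-type regions and 348.9 in 9 knockout regions, which are 466 and 516 tags as sequenced. The ratio was 1.29 (1.13 to 1.46). Regions covered 13844 bp of the body in one and 16077 bp in the other, with 17.9 and 19.6 normalised tags per kb called. The flank on the side of Tmprss6 held 350.1 and 359.0 normalised tags, a ratio of 1.03 (0.91 to 1.15). The flank on the side of C1qtnf6 held 463.2 and 542.0, a ratio of 1.17 (1.06 to 1.29). Regions that cross a boundary were counted on both sides of it.

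Within the Il2rb body the tags were concentrated in its middle and at its higher-coordinate end. The richest stretch began 12.7 kb from the lower-coordinate end and was 6131 bp long (chr15:78491968-78498099). It had 90.1 normalised tags in 2 wild-type regions and 128.1 in 1 knockout region, a ratio of 1.42 (1.14 to 1.76). The stretch over the higher-coordinate end of the gene (chr15:78509106-78513342) had 59.2 and 93.3, a ratio of 1.58 (1.21 to 2.05). In these 2 stretches the called length was 4478 against 6131 bp and 2983 against 4236 bp. The density inside regions was 20.1 and 20.9 normalised tags per kb in the first and 19.8 and 22.03 in the second. Most of the difference in called tags was thus in the length called. Tags outside called regions are not known, so the density over each whole stretch could not be compared. The other 4 stretches of the body that both libraries shared had ratios from 0.80 to 1.22, with intervals that included equal levels. Of 5 equal parts of the body, part 3 was covered to 66.0% by wild-type and 91.7% by knockout regions, and part 4 to 76.6% and 64.0%, so the difference did not run one way along the gene.

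The genes next to Il2rb also carried much of the mark, some with more and some with less cover in the knockout. Tmprss6, a membrane protease gene best known from liver, was covered to 41.3% and 49.5%. C1qtnf6, a C1q and TNF related gene, had the highest share in the window in each library, at 87.8% and 82.1%. Sstr3, a somatostatin receptor gene, was covered to 23.1% and 61.5%, and Kctd17 to 36.3% and 16.8%. Rac2, a small GTPase gene of blood cells, which reaches past the window, was covered to 44.6% and 58.9%. Sstr3 was thus past 20 points toward the knockout, and Kctd17 had its share lower by 19.5 points, just short of the rule.

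The largest contrasts of single stretches in the Il2rb window lay outside the Il2rb body. In Tmprss6, 1 stretch had 9.03 normalised tags in wild type and 41.6 in the knockout, a ratio of 4.61 (2.70 to 9.08), over called lengths of 648 and 2304 bp. At Sstr3 a stretch of 8571 bp had 60.03 normalised tags in 3 wild-type regions and 134.2 in 1 knockout region, a ratio of 2.24 (1.75 to 2.86), with a density of 15.9 per kb called in each. Between Sstr3 and Rac2 a stretch of 4261 bp had 60.6 normalised tags in wild type and 20.3 in the knockout, a ratio of 0.33 (0.22 to 0.51), over called lengths of 4261 and 1035 bp. Within the same window, then, single stretches had more called tags in the knockout at some places and fewer at another.

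Il2rg was marked at few places, and the regions overlapping its body had more tags in the knockout. Wild type had 1 region over the body, at the 3′ end, of 500 bp with 7.58 normalised tags. The knockout had 2, the first of 1220 bp with 16.9 normalised tags in the same stretch and the second of 1133 bp with 21.0 over the start. Counted as whole regions, these held 13 tags as sequenced in wild type and 56 in the knockout. Divided by body length this was 1.96 normalised tags per kb (exact Poisson 95% interval 1.04 to 3.35) and 9.79 (7.39 to 12.7). Of the second knockout region only 353 bp lay in the body. The knockout value thus includes tags from upstream of the gene and is not a density of the body itself. The wild-type and the first knockout region shared 18 bp. The wild-type region had the 13 tags the caller asked for, which is below the knockout's 8.11 on the normalised scale, and with that value as the minimum for regions of 500 bp in both libraries wild type had none over the body.

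The second knockout region of Il2rg reached from 0.78 kb before the start to 0.353 kb after it, and so covered the promoter printed above. No wild-type region overlapped it, and the nearest stretch upstream, next to Med12, was called in both libraries with 13.7 and 8.79 normalised tags, a ratio of 0.64 (0.29 to 1.28). Med12, which encodes a subunit of the Mediator complex, had 0 bp of wild-type and 500 bp of knockout regions. In the flank beyond the 3′ end, wild type had 1 region in Foxo4, a forkhead transcription factor gene, and 1 at Snx12, together 18.97 normalised tags, and the knockout had none. The upstream flank had 28.6 normalised tags in wild type and 50.1 in the knockout. Its ratio, with the region over the start counted in it, was 1.75 (1.20 to 2.57).

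**Figure D3:**
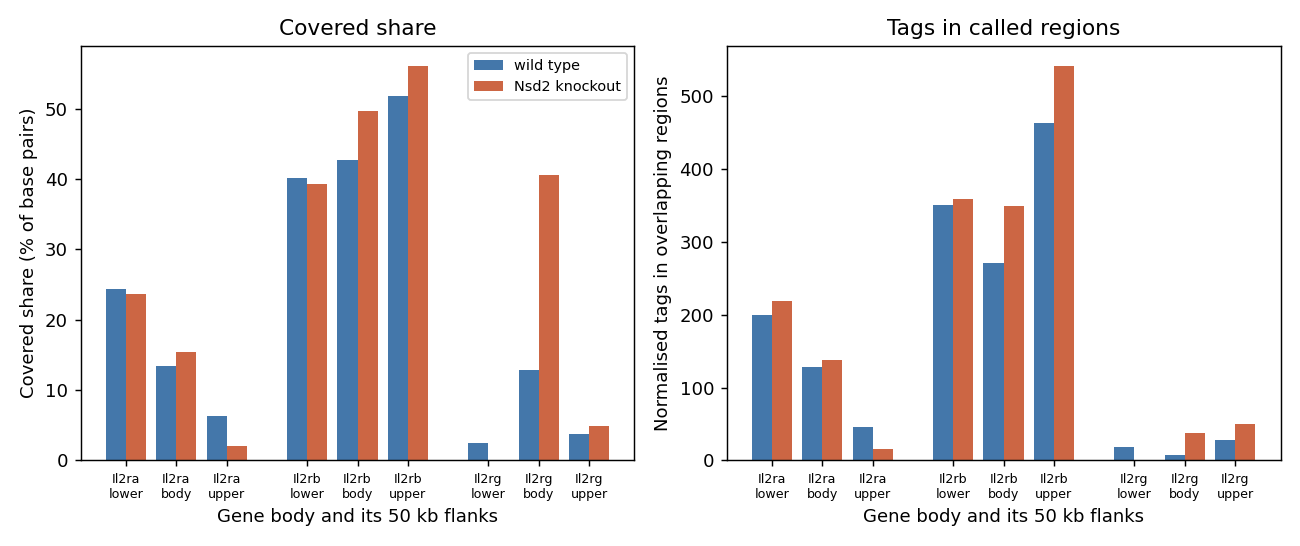
Covered share in percent (left) and normalised tags in called regions (right) for the gene body and the 50 kb flanks of each chain, where lower and upper refer to chromosome coordinates. Tags are those of whole regions that overlap each part. Bars show the 1 wild-type and 1 knockout library and have no error bars; in the knockout the Il2rb body, at 348.9 against 271.5 tags, and the Il2rg body, at 37.9 against 7.58, are higher, and the upper flank of Il2ra is lower.

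Summed over the whole windows, the tags of the genotypes differed little at Il2ra and by somewhat more at the other genes. The knockout had 49.5% of the normalised tags of both libraries at Il2ra (exact 95% interval 46.5 to 52.4), 53.0% at Il2rb (51.3 to 54.7) and 54.9% at Il2rg (47.5 to 61.8). Equal normalised tags would give 50%, so the interval excluded equality after scaling at Il2rb alone, with a ratio of 1.13 (1.05 to 1.21). Over the alternative settings the knockout's share ran from 52.8% to 56.8% at Il2rb, but from 40.1% to 55.7% at Il2ra and from 40.4% to 100% at Il2rg, so that these took either direction with the choice of regions. None of the 3 windows differed by 1.5 times or more in either direction. Of the 11151 windows measured, 13.1% were higher and 31.1% were lower in the knockout by that much, and the median ratio was 0.88. By number of regions the knockout had 42.9% at Il2ra (27.7 to 59.0), 42.3% at Il2rb (30.6 to 54.6) and 45.5% at Il2rg (16.7 to 76.6). The knockout thus had fewer regions than wild type in each window, within counting error, while its share of tags was near or above equality. It also had fewer regions over the whole genome, 39745 against 54527, so the lower number was not particular to these windows.

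The median and the longest region were longer in the knockout in each window, but Il2ra and Il2rb had equal numbers of regions of at least 1 kb. The median wild-type region was 748 bp long and the median knockout region 930 bp at Il2ra, 783 and 1122 bp at Il2rb, and 500 and 698 bp at Il2rg. The longest region was 2681 and 5463 bp, 4965 and 8560 bp, and 894 and 1220 bp at these genes. Tag density inside regions was much the same in all 3 windows, from 15.1 to 17.1 normalised tags per kb of region in wild type and from 16.5 to 18.0 in the knockout. Over the genome the median region was 500 bp in both libraries.

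The called positions were shared between the libraries most at Il2rb and least at Il2rg. At Il2rb, 73.2% of the 41 wild-type regions and 80.0% of the 30 knockout regions overlapped a region of the other library by at least 1 bp. At Il2ra these were 12 of 24 and 12 of 18 regions, and at Il2rg 2 of 6 and 2 of 5 regions. Over all 3 windows the shares were 62.0% (exact 95% interval 49.7 to 73.2) and 71.7% (57.7 to 83.2), against 29.8% and 41.0% over the genome. These shares were not adjusted for cover. Regions covered 45.2% and 48.2% of the window at Il2rb, 14.7% and 13.7% at Il2ra, and 3.52% and 3.90% at Il2rg. The part of cover and of region length in the sharing was not tested. The overlapping regions carried 86.9% of the wild-type and 94.9% of the knockout tags at Il2rb, 67.6% and 82.5% at Il2ra, and 38.6% and 38.3% at Il2rg. By base pairs, the part covered in both libraries was 49.5% of the part covered in either at Il2rb, 33.6% at Il2ra and 7.20% at Il2rg, and 20.03% over the genome.

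The windows broke up into 77 stretches, of which 35 were called in both libraries, 27 in wild type only and 15 in the knockout only. Over chromosomes 1 to 19 and X there were 77102 stretches. Of these, 15475 were called in both, 38222 in wild type only and 23405 in the knockout only, so wild-type-only stretches were the more numerous there too. Stretches of 1 library were small, with a median of 8.16 normalised tags in wild type and 9.13 in the knockout, and the largest had 29.4, in Kctd17, and 21.0, at the start of Il2rg. Among the 35 called in both, the knockout was higher by at least 1.5 times in 8 and lower by as much in 4. These are 22.9% and 11.4%, against 18.5% and 19.7% of the 15475 such stretches in the genome. The median ratio was 1.21 in the windows and 1.02 over the genome. The interval of the ratio lay above equality in 9 of the 35 and below it in 3. No such count was made over the genome, so whether these counts are particular to the windows is not known.

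**Figure D4:**
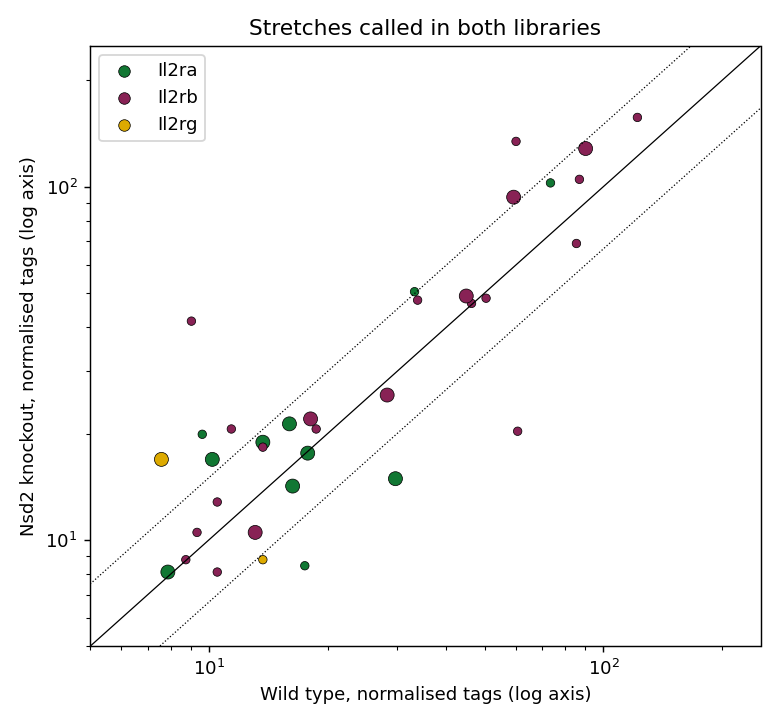
Normalised tags of the 35 stretches called in both libraries, wild type on the horizontal and Nsd2 knockout on the vertical log axis. Large points lie in or over the gene bodies and small points in the flanks, the solid line marks equal levels and the dotted lines a ratio of 1.5 either way; 8 points lie beyond the upper and 4 beyond the lower dotted line, with both the highest and the lowest ratio in the flanks of Il2rb.

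The other genes of the IL-2 family were taken from a list of 30 ligands, receptor chains, kinases, STAT factors, inhibitors and targets. Of the 23 that could be measured, 11 had a larger and 12 a smaller covered share in the knockout, against 36.7% and 59.7% of all measured genes. By 20 points, 1 was higher and 0 were lower, which is 1 of 23 against the 1.93% and 1.71% of all measured genes. The median difference was -0.22 points for the list and -0.69 for all measured genes. Pooled over the list, regions covered 9.36% of gene-body length in wild type and 9.38% in the knockout.

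Over the bodies of the ligand genes, 2 of 7 had a wild-type region and 0 of 7 a knockout region, against 44.4% and 40.6% of all coding genes. Il4 was covered to 10.2% by wild-type regions and by no knockout region, and no region lay over Il2 in either library. With flanks of 50 kb the ligands did have regions, as Il2 had 90.4 normalised tags in wild type and 38.6 in the knockout, Il21 had 61.7 and 55.2, and Il9 had 28.5 and 75.8. By window tags 1 of the 4 ligands measured was thus higher and 2 were lower by at least 1.5 times, beside 13.1% and 31.1% of all windows. Of 6 other receptor chains of the family, 5 had a smaller share in the knockout, as had 59.7% of all measured genes. Il4ra had 39.2% and 36.1%, Il21r 30.1% and 24.99%, and Il9r 22.6% and 2.82%, a difference of -19.8 points that just missed the rule. Crlf2, the receptor chain for TSLP, which pairs with the IL-7 receptor and not with the common gamma chain, was the exception with 36.8% and 45.2%. By window tags, 0 of the 6 were higher and 1 was lower by at least 1.5 times, with a median ratio of 0.94. Window tags did not always go with the covered share, with ratios of 1.07 for Il4ra, 1.09 for Il21r, 0.63 for Il9r and 0.82 for Crlf2. Il4ra and Il21r both lie on chromosome 7 and need not be independent cases.

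The kinases and STAT factors that act below the receptor had a larger share in the knockout in 6 of 6 cases, by 0.31 to 3.46 points. Of all measured genes 36.7% had a larger share. The direction was not particular to this group, as 7 of the 7 pan-T markers measured also had a larger share, with a median difference of 5.33 points. Stat3, Stat5a and Stat5b all lie on chromosome 11, so the 6 genes need not be independent cases. Jak1 was covered to 13.4% and 13.7% and Jak3 to 7.925% and 10.99%. Stat5a was covered to 10.5% and 13.9% and Stat5b, the more covered of the pair, to 21.8% and 25.2%. Each of these differences was under 20 points. By window tags, Jak3 had 145.1 and 252.9, a ratio of 1.74, and Stat3 had 258.5 and 398.2, a ratio of 1.54, and these 2 of the 6 were past 1.5 times.

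Inhibitors of the pathway differed in both directions. Socs3 was covered to 29.9% and 57.3%, the one gene of the list past the rule. Socs1 had 30.7% and 41.2% and, at 1729 bp, was shorter than the genes measured. Cish, a target of STAT5 that dampens its activation, had 55.3% and 39.7%. Of the targets and adaptors, Pim1, a kinase gene induced by cytokines, had 52.5% and 51.9%, and Bcl2, a survival gene, 14.5% and 13.6%. Mcl1, another survival gene, had 8.23% and 13.5%, and the adaptor genes Shc1 and Grb2 had 6.52% and 10.7%, and 7.53% and 12.5%. By window tags, 4 of the 27 list genes measured were higher and 5 lower in the knockout by at least 1.5 times, beside 13.1% and 31.1% of all windows measured.

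**Figure D5:**
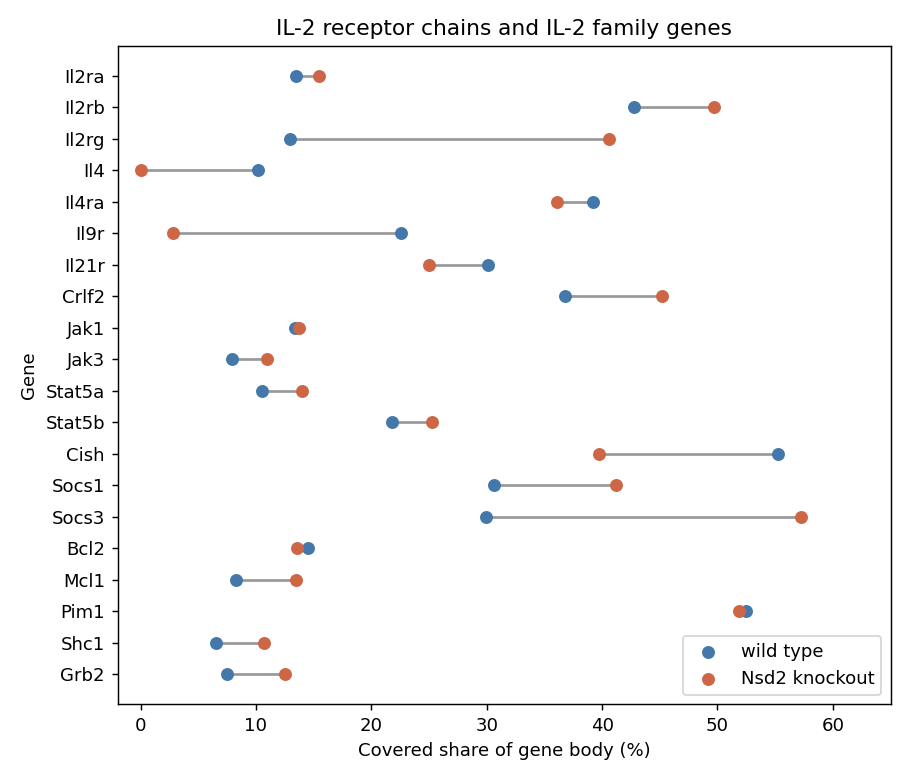
Covered share of the gene body, in percent, of the 3 IL-2 receptor chains and the 17 IL-2 family genes covered to at least 10% in either library. Each line joins the wild-type and the knockout value of 1 gene, 1 library each with no error bar; the longest lines are those of Il2rg and Socs3, with the knockout higher, and of Il9r, with the knockout lower.

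Genes most like each chain in cover were found among coding genes of similar length, within 1.5 times, by the distance between their pairs of covered shares over the 2 libraries. For Il2ra, out of 2497 genes, they were Glb1 (14.1% and 14.6%), Smyd2 (14.8% and 15.8%) and Pxn (12.3% and 16.4%). For Il2rb, out of 2781, they were Pip5k1c (41.7% and 50.3%), its neighbour Tmprss6, and Asb2 (42.6% and 51.3%). For Il2rg, out of 904, they were Slc39a7 (11.3% and 40.6%), Maz (13.8% and 39.2%) and Eif5a (16.5% and 40.0%). Distances were from 1.06 to 1.67 points, except for Eif5a at 3.63.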

How the data were processed

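The deposited files are 1 region list per library. Per the file headers, HOMER findPeaks called regions on each library alone, in histone style and without a control library, by stitching peaks of 500 bp with a minimum distance of 1000 bp and a fragment length of 180 bp. The authors deposited as signal a normalised tag count per region, scaled to 10000000 tags per library, and its score, deposited by the authors, is on the scale of tags in 1 peak. Trim Galore, Bowtie2, Picard, deepTools and the build mm10 are named in the submitters' processing notes, without versions or order. The antibody is not given in the sources used here. Scaling to equal totals removes any genome-wide difference in the mark. Tag reads are not independent molecules.

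Coordinates are printed as deposited, and region length is end minus start. Overlaps of at least 1 bp, covered shares and tag sums were computed in Python 3.11.15 with numpy 2.4.6, pandas 2.3.3 and scipy 1.17.1, and the code was tested on simulated data. Tag sums count whole overlapping regions. Shares and ratios have exact Clopper-Pearson 95% intervals from tag numbers recovered by library size (100% of values under 10 were multiples of 0.5 tags, within 0.05 of such a step), converted to the normalised scale. They do not cover the calling of regions. Gene positions and promoters are from RefSeq, GRCm38.p6.

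Genes were counted by size, at 20 percentage points of covered share or 1.5 times in tags. Named were the 3 chains, genes in their windows, list genes covered to at least 10% in either library and the 3 genes most alike in cover. Il2, Il9, Il21 and Stat3 were added after their values were seen, and the stretches singled out were chosen after their values were seen. Alternatives changed the threshold, region sizes, window and overlap, and the one with the same tag minimum in both libraries was chosen after seeing the data. The members and lists were chosen with earlier results of these data known.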

Additional observations from a re-analysis of the deposited data

How the results depend on the processing

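With 1 library per genotype, no alternative carries a test, and a value is called moved here when it left its interval, which covers counting of tags or regions or, for cover, of pieces of 500 bp. The knockout's share of window tags at Il2ra moved from 49.5% to 40.1% with regions scored at or above their library's median, to 52.6% when the knockout's tag threshold was put on the 500-bp regions of wild type, to 55.7% without regions under 1 kb and to 53.2% with flanks of 10 kb. At Il2rb it moved from 53.0% to 56.8% without regions under 1 kb and to 56.2% in the gene body alone. At Il2rg it moved from 54.9% to 40.4%, 73.0%, 67.3% and 100% with the higher-scoring regions, with that threshold, without regions of 500 bp and without regions under 1 kb, and to 83.3% in the body alone. That threshold was put on the wild-type list alone, although some knockout regions were also below it. With it on both lists, an alternative chosen after seeing the data, the share was 51.5% at Il2ra, 53.7% at Il2rb and 70.7% at Il2rg. The knockout's share of regions moved at Il2rg alone, to 100% without regions under 1 kb. Dividing the knockout's cover by the genome-wide ratio of covered length (74.4%) brought the difference of Il2rb from 6.90 to 24.0 points, past the rule of size. The differences of Il2ra and Il2rg stayed inside their intervals under all 8 alternatives, but these intervals are wide and include equal shares. The difference of Il2rg ran from 0 to 41.7 points. The 0 came from the higher-scoring regions, none of which lay over the Il2rg body in either library. Regions shared between the libraries became 23.9% of wild-type and 32.1% of knockout regions with a reciprocal overlap of 50%, and 78.9% of wild-type regions with gaps of up to 1 kb. No paired analysis was possible because each genotype had 1 library. At Il2rg the window rests on 95 and 99 tags as sequenced, and depth limits what can be said there.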

Other observations

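Farther from the 3 genes, between 50 and 200 kb on either side, some of the surroundings differed more between the libraries than the windows did. Beyond the higher-coordinate flank of Il2rb, where Rac2, Cyth4 and Elfn2 lie, there were 751.2 normalised tags in 32 wild-type regions and 724.5 in 26 knockout regions, a ratio of 0.96 (exact 95% interval 0.89 to 1.05). On its other side, which holds the cytokine receptor genes Csf2rb and Csf2rb2, there were 61.5 and 94.7 normalised tags, a ratio of 1.54 (1.19 to 2.01). The marked neighbourhood of Il2rb thus ran on past Rac2 and stopped near Kctd17 in both libraries. Upstream of Il2ra, toward Pfkfb3, there were 105.5 and 113.3 normalised tags, a ratio of 1.07 (0.87 to 1.34), and beyond the 3′ flank there were 39.4 in 3 wild-type regions and no knockout region. On the X chromosome, no region of either library lay in this range beyond the 3′ end of Il2rg, and upstream there were 50.1 normalised tags in 6 wild-type regions and 18.9 in 2 knockout regions, a ratio of 0.38 (0.24 to 0.58).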
